A study of Mus musculus with 12 samples.

Results

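The genes for the proteins of the cytosolic ribosome were taken from a table of H3K27ac signal in mouse 4T1 mammary carcinoma cells. A gene was a member when the symbol given to an interval began with Rpl or Rps and a digit, or was Rplp0, Rplp1, Rplp2 or Rpsa. Symbols of pseudogenes and of the S6 kinases were left out. This gave 73 of the 22264 genes in the table and 220 of its 126464 intervals. By name, 39 members encode proteins of the large (60S) subunit, 26 encode proteins of the small (40S) subunit, 7 are paralogs and 1, Rps19bp1, encodes a protein that binds Rps19 and is not itself a ribosomal protein.

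Ribosomal proteins assemble with ribosomal RNA in the nucleolus into the 40S subunit, which decodes the mRNA, and the 60S subunit, which joins the amino acids. Their genes are transcribed at high rates in most growing cells, and their mRNAs are among the most abundant in the cell. Many of these mRNAs begin with a C followed by a run of pyrimidines, through which their translation is tied to the mTOR pathway. H3K27ac is an acetylated form of histone H3 that marks active promoters and enhancers, and its acetyl group comes from acetyl-CoA.

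The study asked how acetate and fatty acid oxidation bear on this mark. Wild-type 4T1 cells, an established line that forms metastases in mice, were kept for 48 h in vehicle, 5 mM acetate, 50 µM etomoxir, etomoxir + acetate, etomoxir + 50 µM SB204990, or etomoxir + SB204990 + acetate. Etomoxir blocks the import of long-chain fatty acids into mitochondria, and SB204990 blocks ATP citrate lyase, which makes acetyl-CoA from citrate. Each treatment had 2 libraries, 12 in all, and human chromatin was added to every sample at 7.5% as a spike-in. The libraries carry 1 of 2 suffixes, called set 1 and set 2 here. Nothing in the labels says what the suffix means or whether the libraries came from separate cultures, so p-values measure the spread between these libraries only.

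The libraries held between 7179165 and 16676442 reads in the intervals, the lowest being etomoxir + SB204990 set 2. Values are read counts multiplied by the authors' spike-in factor of the library, here called scaled reads. As a check of the labelled cell type, the epithelial genes Krt8, Epcam and Cdh1 had 42.0, 27.7 and 43.5 scaled reads per kb of interval with vehicle, and Krt18 and Krt7 named no interval. Of the markers of other cells, Ptprc, Cd3e and Cd79a of leukocytes had 21.6, 10.0 and 14.7 scaled reads per kb. Pecam1 and Cdh5 of endothelium had 35.2 and 19.4, and no interval was named for Alb of hepatocytes. The part of other cells in the results was not tested.

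Sequences around the starts of these genes are shown first, since most of these starts lie in the intervals described below. RefSeq start windows (GRCm38.p6, 250 bases before to 50 after the start) were found for 66 of the 86 protein-coding genes that the name rule takes from the GENCODE annotation, as 78 windows. In 14 of the 78 windows (17.9%) the first base was a C followed by at least 4 pyrimidines, against 2.51% of all 32851 windows. Below, 13 of these start sites are given from 5 bases before the start, 5′ to 3′ on the strand of the gene, with the pyrimidine run from the start in capitals. The runs measured 5 to 13 bases.
Rpl14 (chr9:120571512-120571531, plus strand): tctctCTTCTCgctgagcgc
Rpl15 (chr14:18270972-18270991, minus strand): gccttCTTCCTTTCCTCTgg
Rpl28 (chr7:4792960-4792979, plus strand): tgtctCTCTTTCCgtctccg
Rpl35 (chr2:39005117-39005136, minus strand): ctttcCTCTTTCTCTCgaac
Rpl35a (chr16:33056477-33056496, plus strand): ccttcCTCTTTCCgccatct
Rpl38 (chr11:114668575-114668594, plus strand): tcgttCTTTCCCCgttctct
Rplp2 (chr7:141447646-141447665, plus strand): tcttcCTTTCgccgccggac
Rps6 (chr4:86857353-86857372, minus strand): cgggcCTCTTTTTCgtgacg
Rps10 (chr17:27635230-27635249, minus strand): cgcccCTTCCTTTCCagcct
Rps15a (chr7:118116133-118116152, minus strand): gccatCTTCCCTCgccggtg
Rps18 (chr17:33955651-33955670, minus strand): ccgctCTCTCTTCCacagga
Rps21 (chr2:180257374-180257393, plus strand): ccgccCTCCTgcccaatagt
Rps27 (chr3:90213634-90213653, minus strand): tcgctCCTTTCCggcggtga

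Searched on both strands of the windows, the letters CCGGAAG, the core bound by GABP and other ETS factors, were in 27 of the 78 (34.6%) against 8.86% of all windows. The GC box GGGCGG was in 47 (60.3% against 35.7%), and the YY1 letters AAGATGG were in 12 (15.4% against 6.34%). The E-box CACGTG was in 8 (10.3% against 7.15%), and the TATA box letters TATAAA were in 7 (8.97% against 13.6%). These are matches of letters and no measure of binding. Below are the 100 bases before the start for the 6 printed genes with both a pyrimidine start and CCGGAAG in that stretch, together with Rplp0 and Rps28, whose intervals are described later. Matches to any of these motifs are in capitals.
Rpl15 (chr14:18270987-18271086, minus strand): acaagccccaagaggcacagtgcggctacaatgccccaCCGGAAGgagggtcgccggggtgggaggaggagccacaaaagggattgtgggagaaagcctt
Rpl38 (chr11:114668480-114668579, plus strand): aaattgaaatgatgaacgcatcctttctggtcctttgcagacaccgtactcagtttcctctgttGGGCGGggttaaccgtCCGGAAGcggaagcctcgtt
Rps6 (chr4:86857368-86857467, minus strand): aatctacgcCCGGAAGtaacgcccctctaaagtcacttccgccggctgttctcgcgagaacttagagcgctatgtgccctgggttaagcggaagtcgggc
Rps10 (chr17:27635245-27635344, minus strand): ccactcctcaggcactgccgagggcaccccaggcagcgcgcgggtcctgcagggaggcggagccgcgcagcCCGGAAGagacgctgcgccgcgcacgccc
Rps18 (chr17:33955666-33955765, minus strand): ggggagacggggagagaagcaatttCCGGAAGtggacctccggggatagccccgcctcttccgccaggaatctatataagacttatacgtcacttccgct
Rps21 (chr2:180257279-180257378, plus strand): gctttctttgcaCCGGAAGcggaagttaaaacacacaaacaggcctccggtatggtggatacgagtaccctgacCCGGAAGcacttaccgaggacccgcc
Rplp0 (chr5:115559367-115559466, plus strand): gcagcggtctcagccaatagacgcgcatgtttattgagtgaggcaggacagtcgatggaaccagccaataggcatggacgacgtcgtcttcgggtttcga
Rps28 (chr17:33824563-33824662, minus strand): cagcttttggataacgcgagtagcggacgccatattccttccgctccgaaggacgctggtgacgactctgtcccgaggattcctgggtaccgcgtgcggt

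The 5′ ends of these genes mostly lay inside H3K27ac intervals. After the table had been seen, the 5′ ends of the 86 GENCODE genes (mm10) were set against the intervals, and 81 of them (94.2%) lay inside an interval, against 51.8% of all 22028 protein-coding genes. The 81 genes fell in 80 distinct intervals. Of these genes, 58 lay in an interval that carried their own symbol and 23 in an interval named for a neighbour. For the 58, a median of 98.0% of the gene's scaled reads in all its intervals came from the interval that holds its 5′ end. The share was at least 90% in 49 of them. Such an interval can span the gene and the starts of its neighbours. The share therefore does not place the signal at the 5′ end itself.

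The symbol given to an interval therefore did not always lead to the ribosomal protein gene under it. Rplp2, a protein of the acidic stalk that recruits translation factors, lay in an interval named for Cracr2b. Rps28 lay in one named for Kank3, Rpl4 in one named for Snapc5 and Rps2 in one named for Snhg9. In all, 13 of the 86 genes had no interval of their own symbol, and the 5′ ends of 12 of these were in an interval all the same. For 11 of the 73 members the 5′ end, taken as a single position per gene, lay in a neighbour's interval. The reads under their own symbol thus came from intervals without that position. For Rpl28, as an example, the interval of its own symbol held 7.5 to 22.1 scaled reads in any library. The interval over its 5′ end (chr7:4776053-4798757) held 797 to 1640. Rps14 also belongs to the 11, but its own interval (chr18:60769697-60779806) was annotated as a promoter. That interval may therefore hold another start of the gene, which was not tested. The 5′ ends of Rpl10l, Rpl17, Rpl39l, Rpl3l and Rps27rt were in no interval, at 253, 621, 22695, 30 and 1000 bases from the nearest. Rpl10l and Rpl3l are paralogs known from testis and from muscle.

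The 80 intervals were long and dense. Their median length was 9559 bp, from 2757 bp at Rps23 to 106420 bp at Rps21, against 5787.5 bp for the 9194 intervals over any protein-coding 5′ end and 715 bp for all intervals. In the vehicle libraries they held a median of 51.9 scaled reads per kb, against 30.4 for intervals over protein-coding 5′ ends. Of the latter, 89.6% had a lower density than the median ribosomal protein interval. The densest were Rps27a with 100.3 scaled reads per kb (chr11:29544541-29549680), Rps26 with 85.5 (chr10:128622761-128627770) and Rps12 with 82.2 (chr10:23782517-23790939). Rps27a encodes a ubiquitin fused to a small-subunit protein. The lowest density was over the 5′ end of Rpl3, a core protein near the peptidyl transferase centre, with 22.7 (chr15:80089490-80104286, named for Syngr1).

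**Figure D1:**
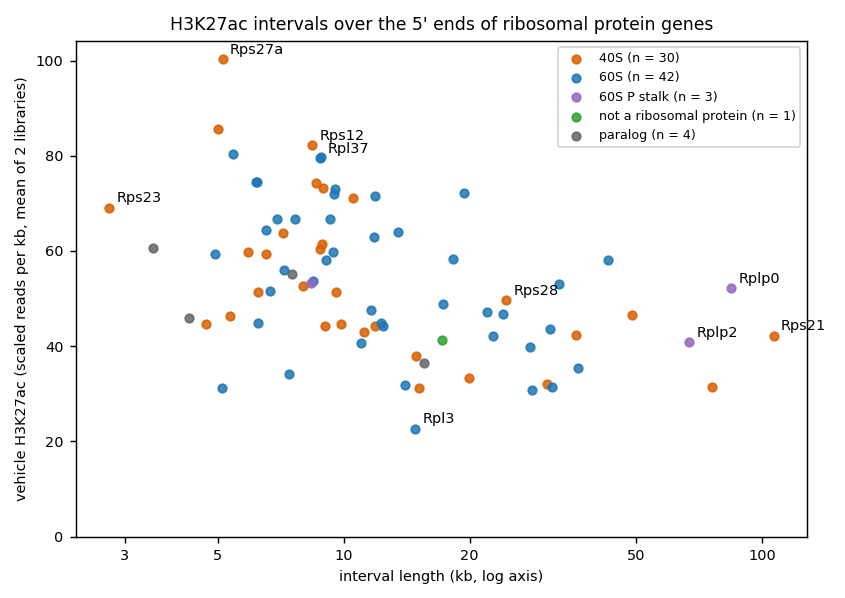
Each point is 1 of the 80 intervals over a ribosomal protein gene 5′ end, with its length in kb on a log axis and its mean vehicle signal in scaled reads per kb of 2 libraries, coloured by subunit. Rps27a stands highest at 100.3 scaled reads per kb, while the longest intervals, at Rps21 and Rplp0, held 42.2 and 52.2.

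Intervals with more gene starts were longer. In 43 intervals another protein-coding gene also started, and their median length was 15597 bp, whereas the 37 that held only the ribosomal protein gene's start had a median of 7401 bp. The interval over Rplp2 (chr7:141428561-141495506) held 9 protein-coding starts, the most of any. That of Rps21 (chr2:180168111-180274530) also held Adrm1, Cables2 and Lama5. In such intervals the reads of a ribosomal protein gene and those of its neighbours cannot be told apart. By gene sums, Rps21, Rplp0, Rpl3, Rpl10a and Rpl27a had the highest vehicle levels and Rpl28, Rpl38, Rps16, Rpl17 and Rpl3l the lowest. Per kb of interval, Rps27a, Rps12, Rpl37 (79.5), Rps10 (74.3) and Rpl13 (73.1) led, and Rpl29, Rps16 (9.9), Rpl24 (7.9), Rpl17 (5.2) and Rpl10l (4.5) came last. The median member had 42.4 scaled reads per kb and the median gene 16.4. The density of the intervals differed little between the kinds, at 53.8 scaled reads per kb with 1 start and 48.8 with more. Intervals of 60S genes had a median of 54.9 and those of 40S genes 50.5.

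The level over these genes was higher in every library with acetate than in the library of the same suffix without it. Summed over the 80 intervals, vehicle had 64957 ± 604 scaled reads (mean ± SD, n = 2 here and below), from 65384 and 64530 in sets 1 and 2. Acetate had 90111 ± 5975, from 94336 and 85886. Acetate thus stood above vehicle by 1.44 and 1.33 times within the sets, and the groups did not overlap. In bulk chromatin, more cells carrying the mark and more mark per cell cannot be told apart.

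With etomoxir alone the sum was 72836 ± 54.0, from 72874 and 72798, and with etomoxir + acetate it was 115249 ± 1973, from 116644 and 113854. The latter were the highest of the 12 libraries. Etomoxir + SB204990 gave the lowest sums, 53410 and 52102, with a mean of 52756 ± 925. With acetate added to both inhibitors the sums were 79089 in set 1 and 106443 in set 2, a mean of 92766 ± 19343, so this group had the widest spread. The acetate ratio was 1.60 and 1.56 with etomoxir and 1.48 and 2.04 with etomoxir + SB204990.

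As a share of the reads in all intervals, the same 80 intervals changed far less. They took 0.958% and 0.841% of the reads with vehicle, 0.937% and 0.860% with acetate, 0.909% and 0.927% with etomoxir, and 0.854% and 0.882% with etomoxir + acetate. In etomoxir + SB204990 they took 0.998% in set 1 and 0.726% in set 2, which are the highest and the lowest shares of all libraries. With acetate added the shares were 0.921% and 0.945%. In set 2 the ratio of 2.04 was the product of 1.57 for all scaled reads and 1.30 for the share, and in set 1 the share ratio was 0.923.

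**Figure D2:**
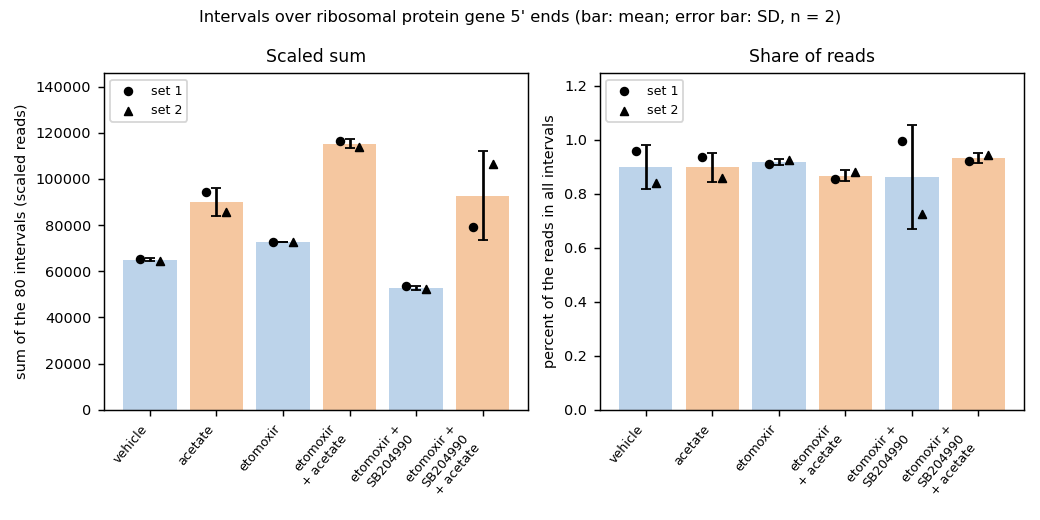
Left, summed scaled reads of the 80 intervals, and right, their percentage of the reads in all intervals, in 6 treatments (bar, mean; error bar, SD, n = 2; circles, set 1; triangles, set 2). The sums range from 52102 to 116644 scaled reads, and the shares from 0.726% to 0.998%, both ends of which are the etomoxir + SB204990 libraries.

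**Figure D3:**
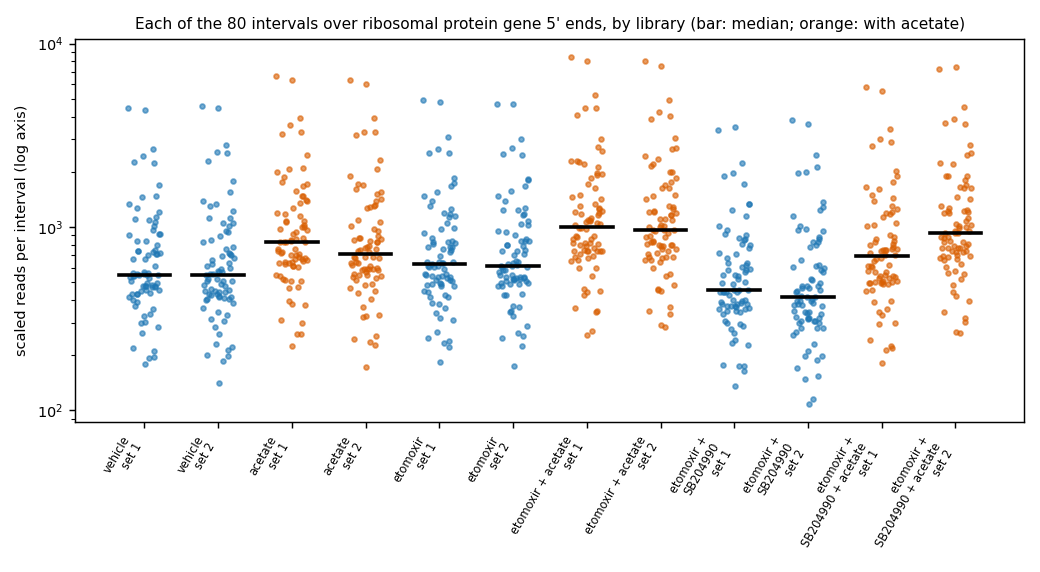
Scaled reads of each of the 80 intervals on a log axis, with 1 column of points per library, a bar at the median, and orange for libraries with acetate. The medians lie at 549 in both vehicle libraries and at 1006 and 968 with etomoxir + acetate scaled reads.

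Acetate was then tested gene by gene, as its log2 fold change averaged over the 3 backgrounds (no inhibitor, etomoxir, etomoxir + SB204990). Values of a gene were summed over its intervals and fitted with limma on log2(sum + 1) across all 19458 genes with a mean of at least 10 scaled reads, and a call needed a p under 0.05 after Benjamini-Hochberg adjustment over all of them. Of the 69 members tested, 66 rose, with a median of 0.63. That is 95.7% of the members, where 88.2% of all tested genes rose, with a median of 0.63 as well. Rpl17, Rpl38, Rpl3l and Rps16 had too few reads under their own symbol to be tested. Over the 5′ ends, all 80 intervals rose, with a median of 0.63 and a range of 0.42 to 0.79, where 77.2% of the 63903 tested intervals rose. Of the 9001 tested intervals over protein-coding 5′ ends 97.7% rose, with a median of 0.61. Of the tested members, 67 (97.1%) were higher with acetate in all 6 comparisons of libraries that share a suffix, compared with 84.2% of all tested genes. When libraries were scaled by the median of ratios, which sets the typical gene to no change, the members' median became -0.01 and none was called, with 1 at an unadjusted p under 0.05. When each library was also divided by its depth, which gives the share of reads times the factor, the median was 0.42, and limma called 0 members, with 0 at an unadjusted p under 0.05.

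Genes of both subunits had medians near the 0.63 of all tested genes, of which 88.2% rose. Among 60S genes 36 of 37 rose (median 0.64), and among 40S genes 25 of 25 rose (median 0.62). With the median of ratios these medians were 0.01 and -0.02, and limma called 0 in either subunit, with 0 at an unadjusted p under 0.05. The 58 members with their 5′ end in an interval of their own ran from 0.50 to 0.73 with an SD of 0.062, against an SD of 0.151 over all tested genes, which include many with fewer reads. As the range is that of these 58, any member outside it has its 5′ end in no interval or in a neighbour's. Rpl36al and Rpl10l were lowest at 0.37 (SE 0.33, adjusted p = 0.290) and 0.41 (SE 0.38, adjusted p = 0.306), and Rpl28 under its own symbol was the third member not called. Rpl14 and Rpl24 were highest at 0.85 (SE 0.25, adjusted p = 0.0033) and 0.75 (SE 0.22, adjusted p = 0.0032), from at most 64.0 and 58.6 scaled reads in any library.

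**Figure D4:**
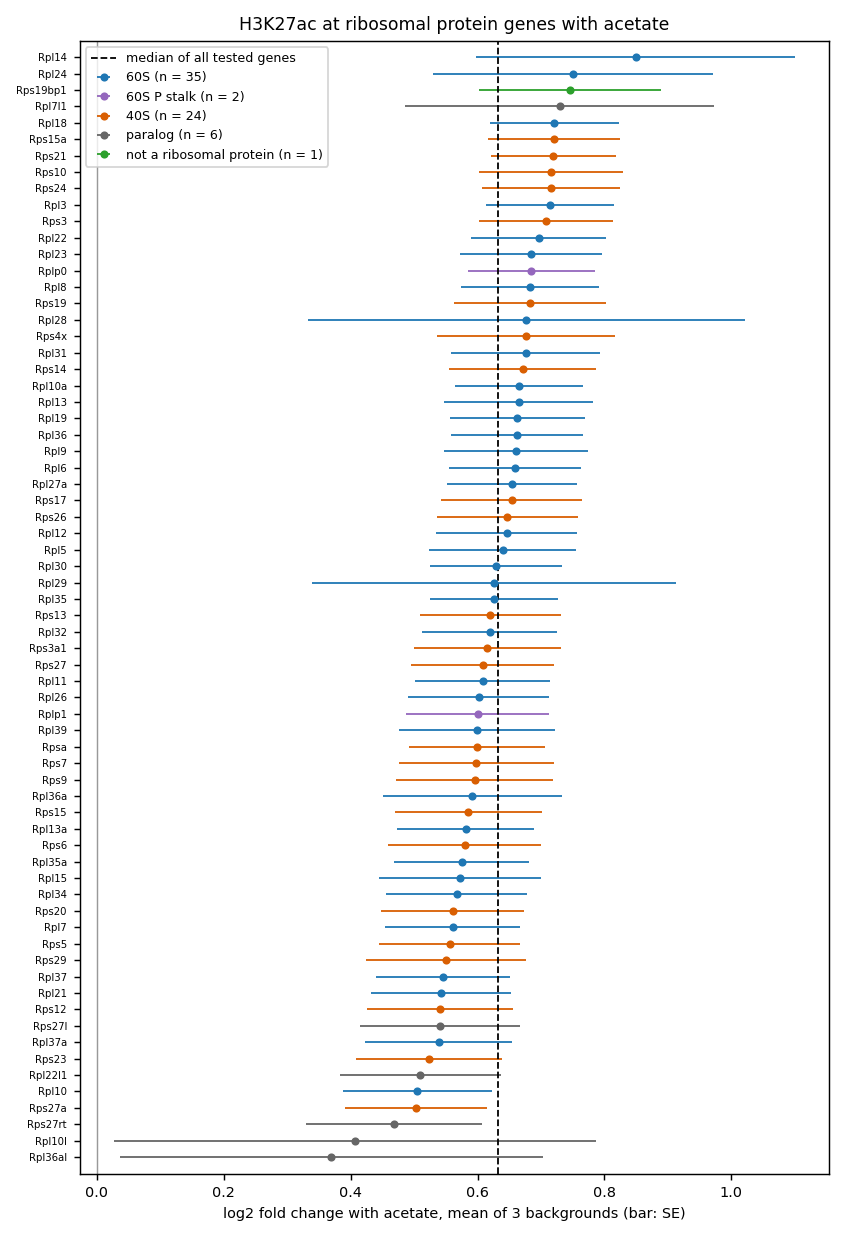
Log2 fold change with acetate, averaged over 3 backgrounds, for 68 of the 69 tested members (point) with its SE (bar), coloured by class, and a dashed line at the median of all tested genes, 0.63. Most members lie between 0.50 and 0.73, and the few with wide bars are those with few reads. With scaling by the median of ratios the members' median is -0.01.

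Rplp0, the protein that anchors the stalk to the 60S subunit, showed the pattern at high depth. Its gene, spread over an interval of 84213 bp (chr5:115498319-115582531), had 4344 and 4441 scaled reads with vehicle, 6319 and 6018 with acetate, 4800 and 4660 with etomoxir, 8027 and 7587 with etomoxir + acetate, 3514 and 3635 with etomoxir + SB204990, and 5501 and 7452 with all 3 agents. Every acetate library lay above every library without acetate. The averaged log2 change was 0.68 (SE 0.10, adjusted p = 1.5e-05).

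Rps21, a small-subunit protein, had the largest sum of any member. The vehicle libraries held 4452 and 4538 scaled reads, acetate 6674 and 6311, etomoxir 4907 and 4670, etomoxir + acetate 8467 and 8045, etomoxir + SB204990 3395 and 3825, and all 3 agents 5775 and 7243. Libraries with and without acetate did not overlap here either, and the averaged change was 0.72.

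Rplp1 pairs with Rplp2 in the same stalk. Rplp1 had 554 and 494 scaled reads with vehicle, 752 and 671 with acetate, 570 and 608 with etomoxir, 858 and 926 with etomoxir + acetate, 417 and 410 with etomoxir + SB204990, and 584 and 842 with all 3 agents, and rose by 0.60 (SE 0.11, adjusted p = 6e-05). The interval over Rplp2 had 2664 and 2800 with vehicle, 3947 and 3919 with acetate, 3109 and 3024 with etomoxir, 5249 and 4952 with etomoxir + acetate, and 2223 and 2480 with etomoxir + SB204990. With acetate added to both inhibitors it had 3422 and 4518. Libraries with and without acetate did not overlap at Rplp2, while at Rplp1 the 584 of etomoxir + SB204990 + acetate set 1 lay below the 608 of etomoxir set 2.

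Rps6, whose phosphorylation is the usual readout of S6 kinase, showed overlap between the groups. It had 444.5 and 395 scaled reads with vehicle, 588.5 and 527 with acetate, 491.5 and 518 with etomoxir, 733 and 718 with etomoxir + acetate, 380 and 304 with etomoxir + SB204990, and 481 and 740 with all 3 agents. The 481 of etomoxir + SB204990 + acetate set 1 lay below both etomoxir libraries, but above the 380 of set 1 without acetate. Its averaged change was 0.58 and passed the test.

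Rpl5 and Rpl11 form with 5S RNA a particle that binds Mdm2 when ribosome assembly fails. Rpl5 had 484 and 436 scaled reads with vehicle, 712 and 602 with acetate, 545 and 547 with etomoxir, 838 and 815 with etomoxir + acetate, 402 and 346 with etomoxir + SB204990, and 541 and 793 with all 3 agents. It rose by 0.64, and its lowest acetate library, at 541, lay just under the etomoxir libraries. Rpl11 rose by 0.61, and 43.1% of its reads came from the interval over its 5′ end (chr4:136046859-136054064), the lowest such share of the 58 members. That interval alone had 401 and 407 scaled reads with vehicle, 544 and 557 with acetate, 441 and 478 with etomoxir, 685 and 690 with etomoxir + acetate, 337 and 268 with etomoxir + SB204990, and 495 and 664 with all 3 agents.

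Rps19, the gene most often mutated in Diamond-Blackfan anaemia, had 714 and 607 scaled reads with vehicle, 1036 and 834 with acetate, 760 and 750 with etomoxir, 1201 and 1102 with etomoxir + acetate, 588 and 460 with etomoxir + SB204990, and 807 and 1240 with all 3 agents. It rose by 0.68, and libraries with and without acetate did not overlap. Rps3, which lines the mRNA entry channel, had 552 and 578 with vehicle, 848 and 765 with acetate, 648 and 633 with etomoxir, 1068 and 1100 with etomoxir + acetate, 456 and 475 with etomoxir + SB204990, and 739 and 957 with all 3 agents. It rose by 0.71, again with no overlap. Rpsa, which encodes a small-subunit protein also known as the laminin receptor, had 801 and 714 with vehicle, 1090 and 969 with acetate, 842 and 866 with etomoxir, 1290 and 1295 with etomoxir + acetate, 642 and 592 with etomoxir + SB204990, and 893 and 1219 with all 3 agents. It rose by 0.60.

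The densest interval, Rps27a, stood among the smallest changes, at 0.50 (SE 0.11, adjusted p = 0.00028). It held 524 and 507 scaled reads with vehicle, 703 and 614 with acetate, 587 and 645 with etomoxir, 864 and 877.5 with etomoxir + acetate, 454 and 383 with etomoxir + SB204990, and 565 and 769 with all 3 agents. Here the 565 of etomoxir + SB204990 + acetate set 1 lay below both etomoxir libraries. At the other end of density, the interval over Rpl3 rose by 0.79, the largest change of the 80.

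Across the 80 intervals, longer ones had larger changes. The averaged acetate change and interval length had a Spearman rho of 0.54 and, with length on the log2 scale, a Pearson r of 0.52. The 20 shortest, of at most 7143 bp, had a median change of 0.57, and the 20 longest, of at least 19332 bp, one of 0.66. Change and density over the 12 libraries had a rho of -0.28 and an r of -0.34. Over the 9001 tested intervals at protein-coding 5′ ends the rho was 0.15 with length and -0.30 with density. These intervals share the same libraries, and density enters the change itself, so the values describe these libraries only. The 37 intervals with 1 start had a median of 0.60 and the 43 with more starts 0.65.

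Members with and without these promoter letters had close medians. Among members with a RefSeq window and an interval of their own at the 5′ end, the median was 0.61 in the 19 with CCGGAAG in a window and 0.64 in the 26 without. For a pyrimidine start the medians were 0.62 in 8 members with it and 0.62 in 37 without.

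The calls differed between the single backgrounds. Without an inhibitor, 0 of the 69 members were called by limma, as were 0% of all tested genes. A block on the suffix gave more calls, as stated below under the dependence on the processing. At an unadjusted p under 0.05 from limma there were 47 members, and 8341 of the 19458 tested genes. EdgeR on the recovered reads called 0 members. When only promoter intervals were used, 27 members could be tested and 9 rose, where 19.5% of the 5241 genes tested in that way were called. The members' median was 0.46 (0.51 in set 1 and 0.42 in set 2), and that of all tested genes was 0.48. Scaled by the median of ratios the members' median was -0.02, and by the share of reads times the factor it was 0.24, with 0 called in either. Over the 5′ ends, 0 of 80 intervals were called by limma, with a median of 0.46. Of tested intervals 0.0955% were called, and of those over protein-coding 5′ ends 0.122%. At an unadjusted p under 0.05 there were 67 of the 80, and the count over all tested intervals was not taken. All 80 were higher with acetate in both sets, a count not taken over all tested intervals. The median of all tested intervals was 0.48 and that of those over protein-coding 5′ ends 0.46. The ends of the range were mostly members with few reads under their own symbol, with Rpl10l at 0.73, Rpl7l1 at 0.66 and Rps19bp1 at 0.66, and at the low end Rpl36al at 0.02, Rpl28 at 0.30 and Rpl36a at 0.30.

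With etomoxir, acetate raised 62 of the 69 members, where 78.2% of all tested genes rose. The members' median of 0.63 was below the 0.79 of all tested genes. Scaling by the median of ratios turned it to -0.16, and scaling by the share of reads times the factor gave 0.66, with 0 members called and 0 at an unadjusted p under 0.05 in either. Rpl10l, Rpl15, Rpl28, Rpl29, Rpl36al, Rpl7l1 and Rps23 were not called. In each set the order was the same, with 0.65 against 0.80 in set 1 and 0.62 against 0.76 in set 2. Over the 5′ ends 78 of 80 intervals rose, where 56.4% of tested intervals and 83.2% of those over protein-coding 5′ ends rose, and their median was 0.61 against 0.68 for intervals over protein-coding 5′ ends. The exceptions were Rpl15 at 0.43 (adjusted p = 0.0567) and Rps23 at 0.16 (adjusted p = 0.492). Rps23, which helps to read the codon in the decoding centre, has the shortest interval (chr13:90922542-90925298). It had 194 and 187 scaled reads with vehicle, 262 and 235 with acetate, 233 and 265 with etomoxir, 271 and 283 with etomoxir + acetate, 175 and 116 with etomoxir + SB204990, and 213 and 263 with all 3 agents. By gene sums, where Rps23 has further intervals, its change was 0.42 (adjusted p = 0.0551), and Rpl37a had 0.46 (adjusted p = 0.042), which turned to -0.33 with the median of ratios. The largest values were those of Rpl28 at 1.12 (adjusted p = 0.0847), Rpl14 at 1.09 (adjusted p = 0.0271) and Rpl24 at 1.02 (adjusted p = 0.0208). The count of members fell to 25 without etomoxir set 1, 20 without etomoxir set 2, 17 without etomoxir + acetate set 1 and 34 without etomoxir + acetate set 2. In the same order 52.3%, 37.9%, 28.8% and 57.3% of all tested genes were called. The intervals over 5′ ends fell to 33, 21, 16 and 40, where 25%, 10.5%, 8.05% and 27% of all tested intervals were called.

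With etomoxir + SB204990, acetate raised 61 of the 69 members, where 57.7% of all tested genes rose, and the median was 0.79 against 0.64. Scaling by the median of ratios gave a median of 0.16 and 0 calls, with 1 at an unadjusted p under 0.05. Scaling by the share of reads times the factor gave 0.37 and 0 calls, with 0 at an unadjusted p under 0.05. All 80 intervals over the 5′ ends rose, where 27.4% of tested intervals and 75.2% of those over protein-coding 5′ ends rose, with a median of 0.79 against 0.69 for intervals over protein-coding 5′ ends. Rpl10l, Rpl14, Rpl24, Rpl28, Rpl29, Rpl36al, Rpl7l1 and Rps27rt, none with an interval of its own over the 5′ end, were not called. The sets went apart here. In set 1 the members' median was 0.53, below the 0.74 of all tested genes, whereas in set 2 it was 1.00, above the 0.53 of all tested genes. Leaving out etomoxir + SB204990 + acetate set 2 brought the members called to 0, with 58 at an unadjusted p under 0.05, as it did for all tested genes (0%), and the intervals over 5′ ends to 51, where 3.31% of all tested intervals were called. Rps10 and Rpl13 were among the members with the largest changes, at 0.97 and 0.95. Rps10 had 548 and 450 scaled reads with both inhibitors and 795 and 1185 with acetate added, a change of 0.97 that was 0.54 in set 1 and 1.39 in set 2.

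**Figure D5:**
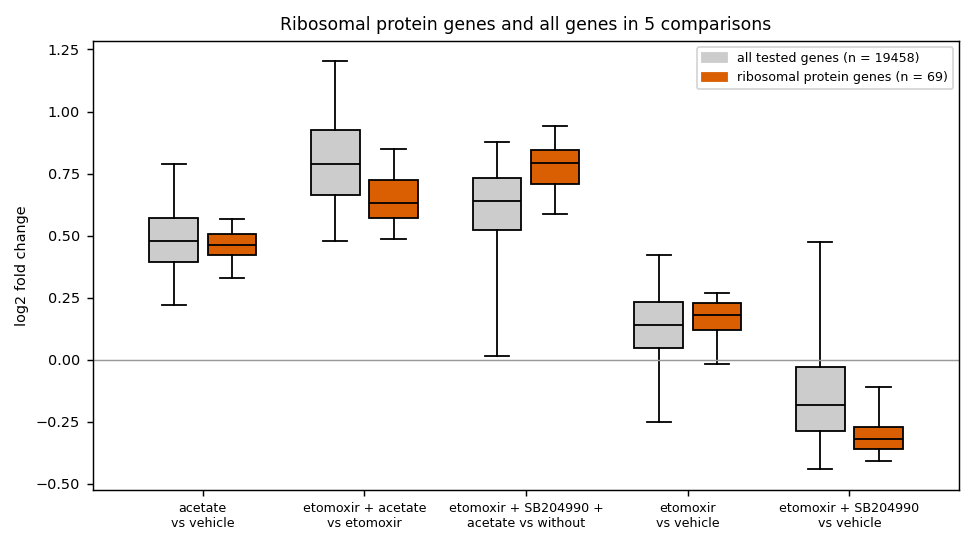
Log2 fold changes of the 69 tested members (orange) and of all 19458 tested genes (grey) in 5 comparisons (box, quartiles; line, median; whiskers, 5th to 95th percentile). The members' median is 0.63 against 0.79 with etomoxir + acetate and 0.79 against 0.64 with etomoxir + SB204990 + acetate, and -0.32 against -0.18 for etomoxir + SB204990 against vehicle. With scaling by the median of ratios the members' medians are -0.16, 0.16 and -0.15.

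The acetate effect was not shown to differ between backgrounds at any member. For etomoxir minus no inhibitor 0 of 69 were called by limma, as were 0% of tested genes and of tested intervals, and 0 reached an unadjusted p under 0.05. The members' median difference was 0.18 and that of all tested genes 0.30, and the direction turned to -0.12 with the median of ratios, while the share of reads times the factor gave 0.43. Without acetate set 2 the median was 0.098. For etomoxir + SB204990 minus no inhibitor 0 were called, as were 0% of tested genes and 0.00156% of tested intervals, again with 0 at an unadjusted p under 0.05. The median difference was 0.33 (0.04 in set 1 and 0.63 in set 2) against 0.16 for all tested genes. It was 0.55 without etomoxir + SB204990 + acetate set 1 and 0.12 without set 2, and without etomoxir + SB204990 set 1 there was 1 member called, where 3.37% of all tested genes were. With the median of ratios it was 0.18, and with the share of reads times the factor 0.13. EdgeR called 0 members in both. The differences ran from -0.07 at Rpl15 to 0.82 at Rpl28 with etomoxir, and from -1.16 at Rpl10l to 0.54 at Rpl36a with etomoxir + SB204990.

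With etomoxir alone, 0 of the 69 members were called by limma against vehicle, as were 0.0154% of all tested genes in either direction, with 0 at an unadjusted p under 0.05 and 0 by edgeR. The median was 0.18, and that of all tested genes 0.14. It was 0.04 with the median of ratios and turned to -0.04 with the share of reads times the factor. Rps4x, a small-subunit gene of the X chromosome, had the highest value at 0.32, followed by Rps23 at 0.31 and Rpl37a at 0.28, and Rpl10l had the lowest at -0.35. Over the 5′ ends 0 of 80 intervals were called, where 0.0626% of tested intervals were. In 78 intervals of set 1 and 77 of set 2 the value was above that of vehicle, a count not taken over all tested intervals. The median of the 80 was 0.18, against 0.15 for all tested intervals and 0.15 for those over protein-coding 5′ ends.

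Rps28 stood apart from the other intervals with etomoxir, a choice made after its values were seen. Its interval of 24481 bp (chr17:33807273-33831753) also holds the starts of Kank3 and Ndufa7. The values were 1209 and 1223 with vehicle, 1715 and 1547 with acetate, 1742 and 1833 with etomoxir, 2607 and 2682 with etomoxir + acetate, 1340 and 1290 with etomoxir + SB204990, and 1899 and 2519 with all 3 agents. Both etomoxir libraries lay above both acetate libraries here. The etomoxir change of 0.56 (SE 0.17, 0.53 and 0.58 in the sets) was the largest of the 80, and no other reached an unadjusted p under 0.05. Its adjusted p from limma was 0.936. It was also the only interval of the 80 that was higher with etomoxir + SB204990 than with vehicle in each set.

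In scaled reads, etomoxir + SB204990 stood below vehicle at nearly all of these genes, without a call at any. Of the 69 members 0 were called by limma, as were 0.00514% of all tested genes in either direction. At an unadjusted p under 0.05 there were 8, all lower, and 825 of the 19458 tested genes in either direction. EdgeR called 0 members. The members' median was -0.32 (-0.31 in set 1 and -0.33 in set 2), and that of all tested genes -0.18 (-0.34 and -0.02). In set 1 the members thus lay near all genes and in set 2 below them. The members' median was -0.15 with the median of ratios and -0.04 with the share of reads times the factor. Without etomoxir + SB204990 set 2, 2 members were called lower, Rpl3 among them, where 12.3% of all tested genes were called in either direction. Without set 1 there was 1 called lower and 1 higher, the latter being Rpl10l, where 5.61% were called. Over the 5′ ends 0 of 80 intervals were called, where 0.0532% of tested intervals were. At an unadjusted p under 0.05 there were 25 of the 80, and the count over all tested intervals was not taken. In both sets 79 of the 80 were below vehicle, a count not taken over all tested intervals. The median was -0.33, against -0.27 for intervals over protein-coding 5′ ends and -0.14 for all tested intervals.

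Rpl3 had the lowest value among members, at -0.59 (SE 0.18, adjusted p = 0.777), from intervals of its own symbol that do not hold its 5′ end. It had 1922 and 1871 scaled reads with vehicle, 2851 and 2608 with acetate, 1903 and 1846 with etomoxir, 3159 and 3040 with etomoxir + acetate, 1234 and 1279 with etomoxir + SB204990, and 1995 and 2734 with all 3 agents. Vehicle and etomoxir + SB204990 did not overlap. Over its 5′ end the interval had 327 and 344 scaled reads with vehicle and 265 and 316 with both inhibitors, a difference of -0.21. Rpl22, which binds RNA outside the ribosome too, had -0.46, and Rpl9 had -0.43.

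Paralogs of ribosomal proteins differed in signal. Under their own symbols the 7 paralogs had a median of 13.6 scaled reads per kb with vehicle, against 46.0 for 60S and 42.7 for 40S members. Rps27l (54.3) and Rpl22l1 (39.2), whose 5′ ends lie in an interval of their own, stood well above this median, as did Rps27rt (32.7), whose 5′ end lies in no interval. With acetate averaged over the backgrounds 4 of the 6 tested rose, with a median of 0.49, where 88.2% of all tested genes rose. With the median of ratios the paralogs' median was -0.14 and limma called 0, with 1 at an unadjusted p under 0.05. Rpl7l1 rose by 0.73 and Rpl7 by 0.56, while Rpl36al had 0.37 and Rpl36a rose by 0.59. The values of Rpl7l1 and Rpl36al come from intervals that do not hold their 5′ ends. Rpl10l had 0.41 and Rpl10, which joins late in 60S assembly, rose by 0.51. Rpl39 and Rps4x rose by 0.60 and 0.68, and their paralogs Rpl39l and Rps4l had no interval of their symbol. Rpl22l1 rose by 0.51 where Rpl22 rose by 0.70, and Rps27l by 0.54 where Rps27 rose by 0.61, and the difference within a pair was not tested. Rps27rt, a retrotransposed copy, rose by 0.47 (SE 0.14, adjusted p = 0.0032). Such copies resemble their parent genes, so reads could be shared between them.

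Other genes of ribosome production and translation, from lists made with earlier results known, showed like values with acetate. Of the genes for mitochondrial ribosomal proteins 58 of the 60 tested rose, with a median of 0.61. Mrpl30 had the lowest value at 0.28, and Mrpl14, the highest, rose by 0.96. Of the genes for RNA polymerase I and its factors, which make ribosomal RNA, 17 of 17 rose (median 0.69), from 0.48 at Twistnb to 0.91 at Polr2h. Of those for ribosomal RNA processing and subunit assembly 51 of 55 rose (median 0.61). Sbds, which helps to release the last assembly factor from the 60S subunit, rose by 0.87, while Rrs1 had 0.36.

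Translation factors rose at 38 of 38 (median 0.62), among them Eif3g by 0.78 and Eif2s1 by 0.50. Genes that control ribosome synthesis, such as those of the mTOR pathway, rose at 12 of 12 (median 0.64). Larp1, which binds the pyrimidine starts printed above when mTOR is off, rose by 0.74, and Tsc2, a brake on mTOR, by 0.83. Of all tested genes 88.2% rose, with a median of 0.63. With the median of ratios limma called 0 genes of each of these lists, with 5 of the mitochondrial list, 1 of RNA polymerase I, 7 of processing and assembly, 2 of the translation factors and 1 of the control genes at an unadjusted p under 0.05. The medians were then -0.02, 0.05, -0.02, -0.02 and 0.02 in that order. For etomoxir + SB204990 against vehicle the medians were -0.20 for mitochondrial ribosomal proteins, -0.15 for RNA polymerase I, -0.18 for processing and assembly, -0.26 for translation factors and -0.27 for control genes, beside -0.32 for the cytosolic members and -0.18 for all tested genes. Fau, which encodes a ribosomal protein under another name, had no interval of its symbol.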

How the data were processed

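H3K27ac ChIP-seq was measured in 12 libraries of 4T1 cells. Per the labels and the study's methods, the authors aligned reads to a merged human and mouse (mm10) genome with nf-core/chipseq v1.2.2 and scaled each library by its human spike-in. The deposited table holds signal values, the reads per interval times the factor, and in 2 libraries with a factor of 1 these are raw counts as deposited. Reads were recovered from the values (100% whole within 0.01). The peak caller's settings, the pooling of replicates for calling and the source of the gene symbols are not given in the sources used here.

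Values were summed per symbol and tested with limma 3.58.1 (trend, log2(sum + 1), genes with a mean of at least 10) in 1 fit of 6 group means, for 8 comparisons. Intervals were fitted in the same way. edgeR 4.0.16 served as an alternative. Only the limma fit of gene values, for the averaged acetate effect, was tried on simulated counts. Genes were named by role, as the 3 highest and 3 lowest members of a comparison, as the 5 at either end of the vehicle level, or as the 2 at either end of each further list. Single intervals were picked after their values were seen. Members, lists and rules were chosen with earlier results of these data known. Since all values of a library carry the same spike-in factor, an inaccurate factor shifts all members of that library jointly. Input libraries were not used here, and a few genes of the lists are not reported here by name.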

Additional observations from a re-analysis of the deposited data

How the results depend on the processing

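Members called were 0, 62, 61 and 66 of 69 for acetate against vehicle, with etomoxir, with etomoxir + SB204990 and averaged. Counts stayed within 1.5 times with a pseudocount of 5, with no filter, with no intensity trend and in edgeR. With promoter intervals only, 27 members could be tested and 9, 26, 27 and 27 were called. Of the 5241 genes so tested 19.5%, 78.9%, 60.8% and 91.9% were called. Scaling by the median of ratios, or by the share of reads times the factor, gave 0 members and 0 intervals over 5′ ends in the latter 3 comparisons. The median of ratios turned the members' median to -0.16 with etomoxir and -0.010 averaged, and turned Rpl37a with etomoxir to -0.33 and, averaged, Rps27rt to -0.17, Rplp1 to -0.035, Rpl11 to -0.028, Rps6 to -0.055 and Rpsa to -0.037. That scaling took the median of all tested genes from 0.63 to 0.00021 for the averaged effect, so these values are relative to it. For the share of reads the cause was not tested. A replicate block on the suffix gave 23 members and 3 intervals for acetate against vehicle, where 20.0% of genes and 3.26% of intervals were called, and no other count moved by over 1.5 times. Same-set deviations correlated at -0.225 to 0.601 (median -0.142) over the pairs of groups, so the suffix was not taken to pair libraries, although each set holds 1 library with a factor of 1. Without 1 library at a time, members ran from 17 to 34 with etomoxir, 0 to 66 with etomoxir + SB204990 and 64 to 69 averaged. For etomoxir + SB204990 against vehicle they ran from 0 to 2, for the interaction with both inhibitors from 0 to 1, and otherwise stayed at 0. Intervals over 5′ ends ran from 16 to 40 with etomoxir, 51 to 80 with etomoxir + SB204990 and 80 to 80 averaged. With 2 libraries a group, and few reads at some of the members whose 5′ end lies under another symbol, small differences were not detectable.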

Other observations

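Rpl10l, a paralog known from testis, had 171 scaled reads in etomoxir + SB204990 set 2, against 13.1 to 50.8 in the other 11 libraries. Its 11 intervals lay up to 449635 bases from its start, and 253 bases separated its 5′ end from the nearest interval. For etomoxir + SB204990 against vehicle its log2 change was 1.14, from -0.51 in set 1 and 2.80 in set 2. The same library took the lowest share of reads for the 80 intervals over ribosomal protein gene 5′ ends, 0.726%. The part of this library in the comparisons with both inhibitors was not tested beyond leaving it out.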
